A study of Drosophila melanogaster with 10 samples.

Results

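Rump and Shep, a pair of RNA-binding proteins that both touch the gypsy chromatin insulator, were set against each other as occupants of the Drosophila genome. All 338 Rump peaks and all 1443 Shep peaks of the deposited lists were taken, 1781 of the 9570 peaks that the lists of the 5 mapped proteins hold, and no peak was chosen by its values. The data come from chromatin immunoprecipitation followed by sequencing (ChIP-seq) in Kc167, a cell line established from Drosophila melanogaster embryos and kept at 25 °C, with no treatment and no mutation stated for any group. Rump was precipitated in 2 libraries, with the antibodies 10c3 and 5g4, and Shep in 2 libraries, with a guinea pig and a rabbit antibody. All of these libraries came from the first of the chromatin preparations and were paired with its input. Each list already joins the libraries of its protein, so differences between antibodies or cultures cannot be seen, the number of reads behind a peak is unknown, and every interval below covers counting error only. A cell line in monolayer is 1 cell population, and any cell type in which these proteins act differently lies outside it.

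Rump (Rumpelstiltskin) belongs to the hnRNP M family of RNA-binding proteins and is known in Drosophila for its part in localising maternal RNAs in the oocyte and early embryo. Shep (Alan shepard) carries RNA recognition motifs and is known for its part in the nervous system, where it limits gypsy insulator activity. The gypsy insulator is held together by the zinc-finger protein Su(Hw), which binds DNA, with Mod(mdg4)2.2 and CP190. Neither RNA-binding protein is known as a sequence-specific DNA-binding factor, and a ChIP peak places a protein near a stretch of DNA without telling direct contact from contact through RNA or another protein.

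The assembled arms 2L, 2R, 3L, 3R, 4 and X, taken to end at the last peak of any list, held 293 Rump peaks and 1438 Shep peaks, and spacing, clustering and distances were measured there. This is 2.45 Rump peaks per Mb and 12.02 Shep peaks per Mb. Off the arms lay 45 Rump peaks (13.3% of the list), of which 34 were on the unplaced sequence U and 2 on the mitochondrial genome, and 5 Shep peaks (0.347%), none of them on U. The lists also differ in their own stringency. No Rump peak has a q above 0.05 (highest 0.00509), while 450 of the 1438 Shep peaks on the arms do (highest 0.156). Peak scores are the authors' own, run from 17.1 to 190 in the Rump list and from 82.3 to 315 in the Shep list, and were used only to rank peaks within a list. Rump peaks are 256 bp wide and Shep peaks 484 bp.

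Shep peaks had a neighbour of their own list within 10 kb far more often than Rump peaks did, and both lists had more close neighbours than even placement gives. On the arms, the median distance from a Rump midpoint to the nearest other Rump midpoint was 131440 bp (95% interval 105768 to 148834, 292 peaks), and that from a Shep midpoint to the nearest other Shep midpoint was 14094.5 bp (12748 to 15960, 1438 peaks). The middle 50% of these distances spanned 34571 to 271604 bp for Rump and 3291 to 42390 bp for Shep. A list with more peaks is denser by its number alone, so each list was also set against the spacing that the same number of peaks per arm would have if placed evenly and independently. That calculation gives a scale and is not a test. The Rump median was 0.947 times the evenly placed median of 138802 bp, and the Shep median was 0.501 times its own, 28105 bp.

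Shares within a fixed distance were lower for Rump throughout. A neighbour of the same list lay within 1 kb for 2 of 293 Rump peaks (0.683%, 0.187 to 2.45) and for 156 of 1438 Shep peaks (10.8%, 9.34 to 12.6). Within 10 kb it was 21 Rump peaks (7.17%, 4.74 to 10.7) and 613 Shep peaks (42.6%, 40.1 to 45.2), a difference of -35.5 percentage points (95% Newcombe interval -39.0 to -31.1). Even placement would give 4.90% for Rump and 22.02% for Shep at that distance. The difference between the lists was -10.2 points at 1 kb and -48.0 at 100 kb. Set against even placement, Rump stood at 3.41 times (1.86 to 6.16) within 2 kb, 2.20 times (1.36 to 3.50) within 5 kb, 1.46 times (0.966 to 2.18) within 10 kb, 1.93 times (1.51 to 2.43) within 20 kb and 1.37 times (1.14 to 1.62) within 50 kb. Shep stood at 3.71, 2.62, 1.94, 1.47 and 1.12 times at the same distances. Rump was thus below Shep on this scale up to 10 kb and above it at 20 and 50 kb, and these differences were not tested. The scale has a ceiling for a dense list, since even placement already gives Shep 70.5% at 50 kb. Pairs of peaks have no such ceiling. Counted so, Rump stood at 2.14 and Shep at 2.05 times even placement at 20 kb, and at 1.41 and 1.65 times at 50 kb. At 100 kb the Rump share, 43.7%, was 1.11 times the evenly placed one and the Shep share, 91.7%, was 1.01 times. Some Shep peaks lie so close that 90 of them overlap another Shep peak, which no Rump peak does with another Rump peak. With peaks within 1 kb joined into 1 site, 35.5% of Shep sites still had a neighbour within 10 kb.

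**Figure D1:**
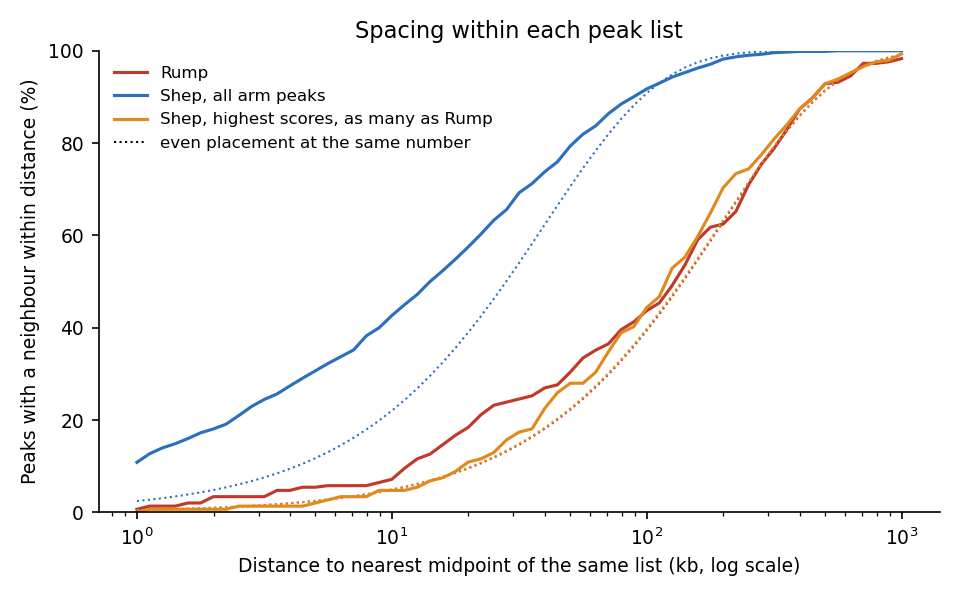
Share of arm peaks (y axis, %) whose nearest midpoint of the same list lies within a given distance (x axis, kb, log scale) for the 293 Rump peaks, the 1438 Shep peaks and the 293 Shep peaks of highest score, with dotted lines for even placement of the same number. All Shep peaks run above their dotted line up to about 100 kb, with 42.6% within 10 kb. Rump also runs above its line up to 100 kb, with 18.4% at 20 kb where even placement gives 9.56%. At 20 kb the highest-scoring Shep peaks are closer to theirs, with 10.9% where it gives 9.70%. At 199526 bp Rump has 62.5% where even placement gives 63.0%, and the highest-scoring Shep peaks 70.3% where it gives 63.3%.

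Chains of peaks whose successive midpoints lie within 10 kb were mostly single peaks in both lists. The Rump list fell into 282 chains, of which 272 were single peaks, 9 were pairs and 1 held 3 peaks. The Shep list fell into 1077 chains, of which 825 were single peaks, 183 were pairs, 47 held 3 peaks and 22 held 4 or more, with 106 peaks among these last. The longest Rump chain, 3 peaks at chr3L:24162446-24168849 (dm3), sits at the centromere-side end of 3L, has scores from 30.4 to 79.6, and lies 830195 bp from the nearest Shep peak. The longest Shep chain, 10 peaks at chr3R:12047036-12081395, has scores from 83.4 to 169, 4 peaks with a q above 0.05, and 1 Rump peak inside it. Only 1 of its 10 peaks has a Mod(mdg4)2.2 midpoint within 1 kb and 1 a CP190 midpoint. The Rump list held 5 pairs of peaks within 2 kb of each other, 2 of them on 2L, 2 on 3L and 1 on X.

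When only neighbours of the same set were counted, the grouping of Shep depended on how far down the list one goes. The 293 Shep peaks of highest score, as many as there are Rump peaks, had a median nearest distance of 121509 bp (99928 to 144706), against 131440 bp for Rump, and the intervals overlap. Of these, 14 (4.78%, 2.87 to 7.86) had a neighbour of the same set within 10 kb, and the Rump share was 2.39 points higher (-1.54 to 6.41). Within 20 kb the Rump share was 18.4% and that of the highest-scoring Shep peaks 10.9%, a difference of 7.51 points (1.773 to 13.2) in the other direction from that of the whole lists. The intervals also left out 0 at 2 kb (2.73 points, 0.377 to 5.53) and at 5 kb (3.41 points, 0.282 to 6.82), and held it at 1, 50 and 100 kb. Close neighbours are mutual, so a pair counts 2 peaks, and these intervals are narrower than the spread of independent sites. There were 5 Rump pairs against 1 Shep pair at 2 kb, 8 against 3 at 5 kb and 31 against 16 at 20 kb. Whether the differences hold with pairs as the unit was not tested.

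The Shep list was then cut by score into 5 quintiles, numbered from the highest, each with 287 or 288 peaks and so close in number to Rump. In quintile 1, 4.86% of peaks (2.92 to 7.99) had a neighbour of the same quintile within 10 kb, which is 0.996 times even placement. In the other 4 quintiles the share was 14.9%, 12.2%, 12.9% and 14.3% from higher to lower score, 2.48 to 3.02 times even placement. Rump, with 7.17%, lay below each of these 4, with differences of Rump minus Shep between -7.76 and -4.99 points, and none of the 4 intervals of the difference holds 0. The nearest to 0 is that of quintile 3, -9.91 to -0.157, and mutual neighbours make these intervals too narrow as well. The order was not the same at every distance. Within 20 kb the share was 18.4% for Rump and 23.6%, 17.4%, 18.5% and 23.3% for quintiles 2 to 5, so that Rump was above quintile 3 and level with quintile 4. Quintiles 2 and 3 hold no peak with a q above 0.05, so the excess was also seen among peaks within that limit. Taking all Shep peaks of q up to 0.05, the share was 32.1%, 2.04 times even placement, and with q up to 0.01 it was 17.7%, 1.74 times. Counting any Shep peak as a neighbour, 39.2% of quintile 1 (33.8 to 45.0) and 47.0% of quintile 5 (41.3 to 52.8) had one within 10 kb. Even placement of the whole list gives 22.02%, so the highest-scoring Shep peaks also stood near other Shep peaks more often than that. The quintiles were looked at after the list of equal size had been seen.

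**Figure D2:**
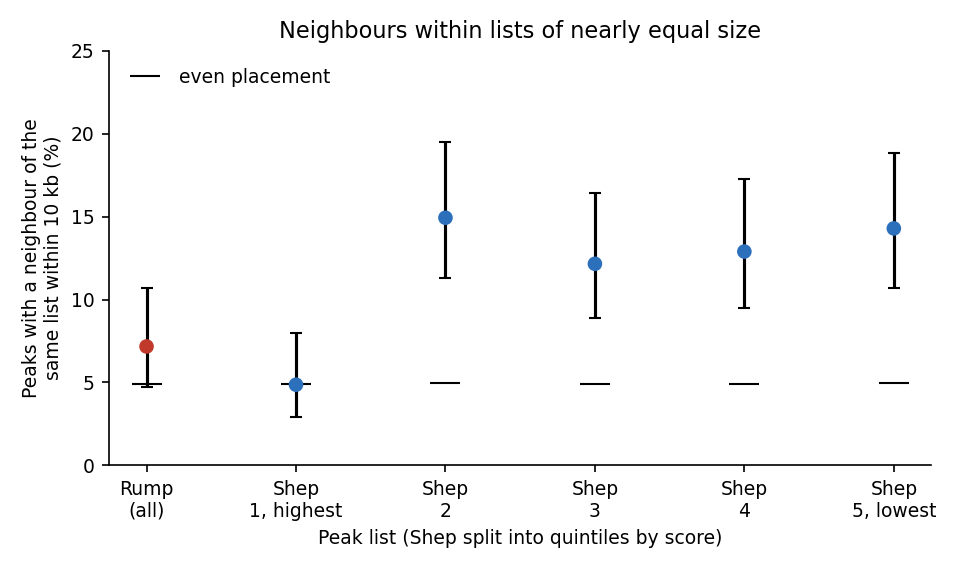
Share of peaks (y axis, %) with a neighbour of the same set within 10 kb, for all 293 Rump arm peaks and for each quintile of the Shep arm peaks by score (x axis), with Wilson 95% intervals and short bars for even placement. Shep quintile 1 sits at 4.86%, on its bar, the other quintiles between 12.2% and 14.9%, and Rump at 7.17%. At 20 kb, not drawn, Rump has 18.4% and these 4 quintiles 17.4% to 23.6%.

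In fixed windows of 100 kb, of which the arms hold 1199, the counts of the whole Shep list varied more against their mean than those of Rump. Rump occurred in 253 windows (background 21.1% of windows) and Shep in 705 (58.8%). The variance of the count per window was 1.06 times the mean for Rump and 1.78 times for Shep, where independent even placement gives a ratio near 1. For grouped peaks this ratio also grows with the number of peaks per window, on average 0.244 for Rump and 1.20 for Shep. The ratios of the whole lists are therefore not on an equal footing. No window held more than 3 Rump peaks, and 4 windows held 3. Shep reached 12 peaks in a window, and 36 windows with 5 or more held 219 Shep peaks (15.2% of the list). A peak shared its window with another of its list in 76 of 293 cases for Rump (25.9%, 21.3 to 31.2) and in 1106 of 1438 for Shep (76.9%, 74.7 to 79.0), against 22.2% and 70.5% for even placement. The Rump share depended on where the windows start. With the same windows shifted by 50 kb it was 31.4% (26.4 to 36.9), an interval that leaves out the 22.2% of even placement in the unshifted windows. With the 293 Shep peaks of highest score the ratio of variance to mean was 1.02 and the shared share 22.9% (18.4 to 28.0), 3.07 points below Rump (the interval of the difference, Rump minus Shep, is -3.88 to 9.99). The lower 4 quintiles of the Shep list each gave 34.8% to 35.5% and ratios from 1.16 to 1.26.

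**Figure D3:**
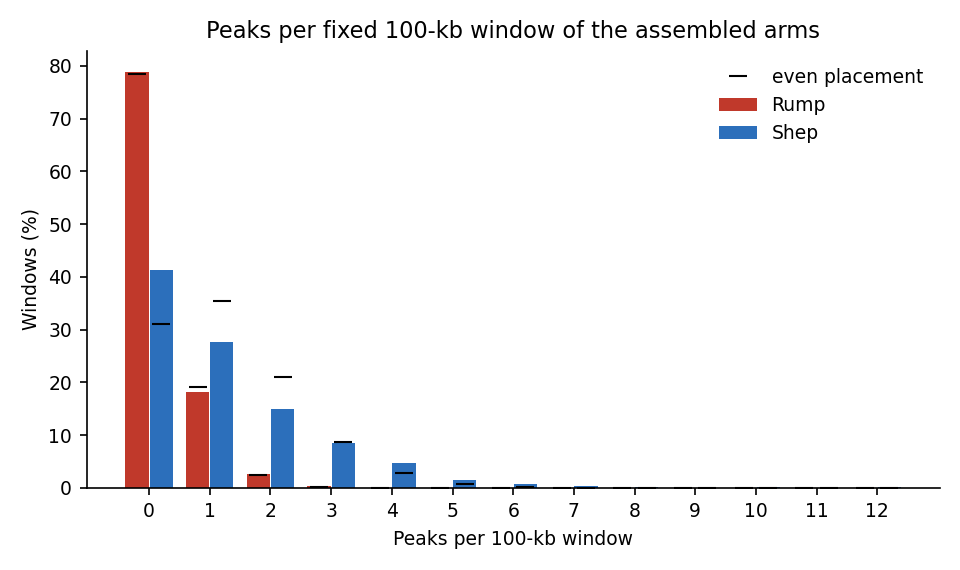
Share of the 1199 windows of 100 kb (y axis, %) with a given number of peaks (x axis) for Rump (left bar of each pair) and Shep (right bar), with short horizontal marks for even placement. Rump bars lie close to their marks, while Shep has more windows with 0 and with 4 or more peaks than its marks and fewer with 1 or 2.

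The windows of both proteins overlapped in part. Of the 1199 windows, 183 held both, 70 held Rump without Shep, 522 held Shep without Rump and 424 held neither. Among the 253 windows with Rump, 72.3% (66.5 to 77.5) also held Shep, against the background of 58.8% over all windows and 55.2% (52.0 to 58.3) of the 946 windows without Rump. Windows with 3 or more Shep peaks made up 16.1% of all windows, 24.9% (19.97 to 30.6) of those with Rump and 13.7% (11.7 to 16.1) of those without. Seen from Shep, Rump was present in 14.2% of the 494 windows with no Shep peak, 23.4% of the 512 with 1 to 2, 28.0% of the 157 with 3 to 4 and 19 of the 36 with 5 or more (52.8%, 37.0 to 68.0). The insulator proteins were also more frequent in such windows. Windows with 5 or more Shep peaks held on average 3.42 Mod(mdg4)2.2, 2.97 Su(Hw) and 4.03 CP190 peaks, and windows with none held 1.81, 1.70 and 1.72, and the part of this in the Rump share was not tested.

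Across the 1199 windows the Rump and Shep counts had a Pearson r of 0.22 and a Spearman rho of 0.17. Both are weak in counts this sparse, and base composition and mappability of the windows, which the lists share, were not measured. Over the same windows the Rump count had an r of 0.44 with Mod(mdg4)2.2, 0.37 with Su(Hw) and 0.33 with CP190, and the Shep count 0.20, 0.16 and 0.32. The highest of these coefficients was with Mod(mdg4)2.2 for Rump and with CP190 for Shep.

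The windows richest in either protein were partly the same. The window chr2L:400001-500000 held 3 Rump and 10 Shep peaks, and no window had more Rump peaks. The window chr3R:11800001-11900000 held 3 Rump and 4 Shep peaks, and another window with 3 Rump peaks, on 2R, held 1 Shep peak. The richest Shep window, chr3R:12000001-12100000, held 1 Rump and 12 Shep peaks, and chr3L:3400001-3500000 held 2 Rump and 10 Shep peaks.

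Rump and Shep were nearer to each other than the arm length taken up by the other list would give, most of all within 1 kb. The median distance from a Rump midpoint to the nearest Shep midpoint was 22823 bp (17611 to 30691), and that from a Shep midpoint to the nearest Rump midpoint was 116951 bp (107532 to 128641). The gap between these medians goes with the unequal length of the lists. Of the 293 Rump peaks, 31 (10.6%, 7.55 to 14.6) had a Shep midpoint within 1 kb, 22 of them with peaks that overlap, while 2.27% of the arm length lies that close to a Shep midpoint. Within 10 kb it was 96 Rump peaks (32.8%, 27.6 to 38.3) and 18.5% of the length, and within 100 kb 252 Rump peaks (86.0%, 81.6 to 89.5) and 80.1% of the length. The ratio of the share to the arm length was 4.65 at 1 kb, 1.772 at 10 kb and 1.07 at 100 kb. Seen from Shep, 2.36% of peaks (1.70 to 3.29) had Rump within 1 kb, 9.60% (8.18 to 11.2) within 10 kb and 45.5% (42.9 to 48.1) within 100 kb, which is 4.86, 2.06 and 1.23 times the arm length at these distances from Rump. Beyond 100 kb from the other protein lay 41 Rump peaks (13.99%) and 784 Shep peaks (54.5%).

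Counted as pairs in rings of distance, the closeness was not made up by the pairs within 1 kb alone. There were 35 pairs within 1 kb, 4.90 times the number for even placement (3.41 to 6.81, exact Poisson interval), 113 pairs from 1 to 10 kb, 1.76 times (1.45 to 2.11), and 770 pairs from 10 to 100 kb, 1.20 times (1.11 to 1.29). Pairs share peaks, so these intervals are narrower than the spread of independent sites. From 1 to 10 kb the insulator lists stood at 1.23 times (1.14 to 1.33) for Mod(mdg4)2.2, 1.05 (0.968 to 1.15) for Su(Hw) and 1.27 (1.18 to 1.37) for CP190, each against the whole Shep list, and the difference between lists was not tested.

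Rump was about as close to Shep as Mod(mdg4)2.2 and CP190 were, and closer than Su(Hw). Within 1 kb of a Shep midpoint lay 10.6% of the Rump list, 13.6% of the Mod(mdg4)2.2 list, 6.56% of the Su(Hw) list and 12.2% of the CP190 list. The Rump share differed by -3.05 points from Mod(mdg4)2.2 (-6.37 to 1.19), by 4.02 from Su(Hw) (0.807 to 8.17) and by -1.59 from CP190 (-4.87 to 2.63). Within 10 kb it was 32.8% for Rump, 29.8% for Mod(mdg4)2.2, 21.998% for Su(Hw) and 29.7% for CP190, and again only the difference from Su(Hw), 10.8 points (5.36 to 16.6), has an interval that leaves out 0. At 100 kb none of the 3 does. Many Rump peaks lie on peaks of those lists, so the shares are not independent.

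**Figure D4:**
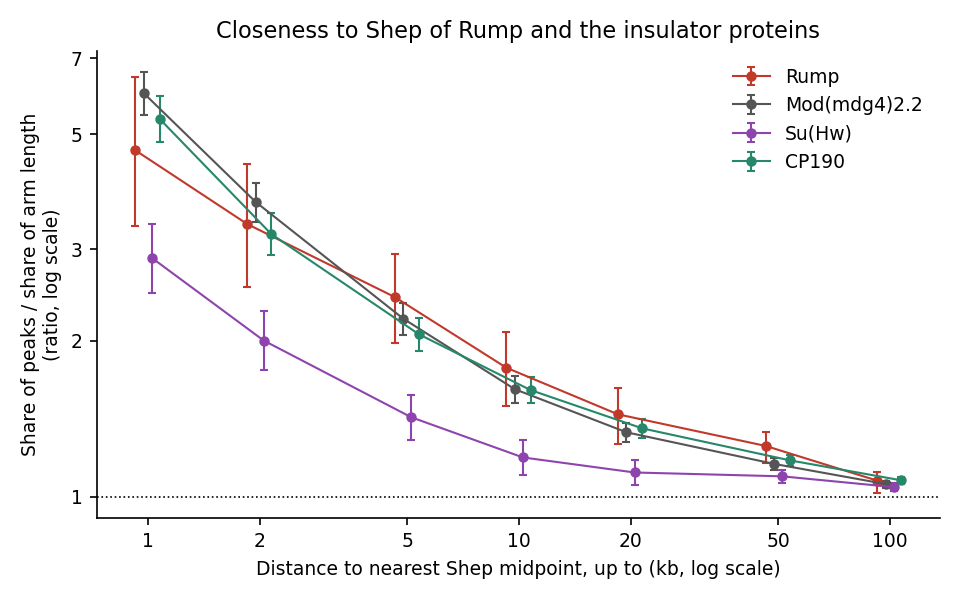
Ratio (y axis, log scale) of the share of peaks within a given distance of a Shep midpoint (x axis, kb, log scale) to the share of arm length that close to Shep, for Rump, Mod(mdg4)2.2, Su(Hw) and CP190, with Wilson 95% intervals of the share divided by the same length. All lists fall toward 1 at 100 kb. At 1 kb Rump starts at 4.65, below Mod(mdg4)2.2 at 5.99 and CP190 at 5.35, and Su(Hw) starts lowest, at 2.88.

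Rump was also closer to Shep than the arm length gives when fewer Shep peaks were taken. With the 293 Shep peaks of highest score, 5 Rump peaks (1.71%, 0.731 to 3.93) lay within 1 kb, 3.49 times the arm length so close to them (1.49 to 8.04), and 32 (10.9%, 7.84 to 15.0) within 10 kb, 2.28 times (1.64 to 3.14). Over the 5 score quintiles the ratio within 10 kb ran from 1.67 to 2.41 without an order by score. With the top 50% of each list by score, 4 of 146 Rump peaks lay within 1 kb, 2.32 times the arm length with an interval that holds 1 (0.907 to 5.79). Within 10 kb the same lists gave 29 of 146, 1.87 times (1.33 to 2.54), and within 100 kb 1.09 times, again with an interval that holds 1 (0.965 to 1.21). For quintile 5 the interval held 1 at 50 kb (1.18 times, 0.950 to 1.45) and at 100 kb (1.14 times, 0.978 to 1.31). Shep peaks of quintile 1 had a Rump midpoint within 10 kb in 10.4% of cases (7.39 to 14.5) and those of quintile 5 in 8.36% (5.68 to 12.1). These intervals overlap widely.

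The Rump peaks nearest to Shep had lower Rump scores. Those within 1 kb of a Shep midpoint had a median score of 21.0 (19.9 to 22.3, 31 peaks), against 26.6 (23.6 to 31.4, 65 peaks) from 1 to 10 kb, 24.8 (23.1 to 26.8, 156 peaks) from 10 to 100 kb and 26.6 (23.4 to 32.0, 41 peaks) beyond. The interval of the nearest set overlaps none of the other 3. For Shep the scores showed no such step, with medians of 103 (89.8 to 116, 34 peaks) within 1 kb of Rump, 112 from 1 to 10 kb, 105 from 10 to 100 kb and 110 beyond. A q above 0.05 was held by 44.1% of the Shep peaks within 1 kb of Rump and by 26.9% to 32.2% of those in the farther sets.

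Of the overlapping pairs, the 3 of highest Rump score were chr2L:490128-490383, with a Rump score of 64.3 and a Shep score of 90.7 at a midpoint distance of 261 bp, chr2L:14706278-14706533, with 41.4 and 84.5 at 18 bp, and 1 on 2R, with 37.2 and 99.9 at 132 bp. Each had a Mod(mdg4)2.2 and a Su(Hw) midpoint within 1 kb, and both on 2L a CP190 midpoint too. They were chosen for their Rump score, while the Shep score of each is below the Shep median of 108. The strongest Rump peak of the arms, chr3R:19157085-19157340 with a score of 190, lies 5131 bp from the nearest Shep midpoint. The next, chrX:20631341-20631596 with 86.7, lies 101660 bp away, and chr3L:24162446-24162701 follows with 79.6, and its chain of 3 makes up the Rump peaks farthest from Shep, up to 836343 bp. Of the strongest Shep peaks, that on 2R (score 315) lies 43574 bp from Rump, chr3R:133447-133930 (265) lies 351215 bp away, and chrX:18528656-18529139 (253) lies 655 bp from a Rump midpoint of score 19.1.

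The lists differed widely in how often an insulator protein lies next to a peak. Within 1 kb, Mod(mdg4)2.2 was present at 92.5% of Rump peaks and 24.9% of Shep peaks, Su(Hw) at 86.3% and 11.3%, and CP190 at 81.9% and 24.8%, with differences of 67.6, 75.01 and 57.2 points. By 100 kb these differences were down to 3.003 points (1.04 to 4.21) for Mod(mdg4)2.2, 1.85 (-0.775 to 3.55) for Su(Hw) and -0.594 (-2.86 to 0.599) for CP190. At 100 kb most of the arms lies near an insulator peak, since 92.6% of the length is that close to a Mod(mdg4)2.2 midpoint. Within 1 kb the share of the length is 4.18% for Mod(mdg4)2.2, 3.90% for Su(Hw) and 4.57% for CP190. Rump stood at 22.1, 22.2 and 17.9 times these shares. Shep stood at 5.96, 2.91 and 5.42 times, so it too was near insulator peaks more often than the length gives. The Shep shares also went with score. At least 1 of these proteins lay within 1 kb of 50% of the peaks of Shep quintile 1 (44.3 to 55.7) and 31.0% of quintile 5 (25.9 to 36.6).

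The insulator proteins beside Shep peaks were counted by the distance to Rump. For the nearest set the count is nearly fixed beforehand, since 92.5% of Rump peaks have a Mod(mdg4)2.2 midpoint within 1 kb, at a median distance of 17 bp over the whole list, so a Shep peak that close to Rump is close to Mod(mdg4)2.2 as well. Within 1 kb of Rump, 32 of 34 Shep peaks (94.1%, 80.9 to 98.4) had an insulator protein within 1 kb, against 43.3% (34.2 to 52.9) from 1 to 10 kb, 43.0% from 10 to 100 kb and 40.1% beyond. CP190 was near 73.5% of the Shep peaks within 1 kb of Rump, 11.5% (6.72 to 19.1) of those from 1 to 10 kb, 23.4% (19.998 to 27.3) of those from 10 to 100 kb and 25.3% (22.3 to 28.4) of those beyond. In the CP190 list, whose wide peaks have midpoints no closer than 692 bp, another CP190 midpoint lies within 2 kb in 0.877% of cases. The Su(Hw) list is spaced alike, with 0.686% within 2 kb. Su(Hw) was near 13.5% of the Shep peaks from 1 to 10 kb of Rump, 10.9% from 10 to 100 kb and 8.67% beyond. The part of such spacing in the low CP190 share was not tested. For Rump, an insulator protein lay within 1 kb at 96.8%, 90.8%, 97.4% and 87.8% of peaks in the same order of distance from Shep.

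Over the arms, the distributions differed most on 3L. Rump had 69 of its 293 arm peaks there (23.5%, 19.1 to 28.7) and Shep 236 of 1438 (16.4%, 14.6 to 18.4), a difference of 7.14 points (2.22 to 12.6), where 3L makes up 20.2% of the length. Of the 6 arms compared, this was the only one whose interval leaves out 0. The interval held 0 when only the 293 Shep peaks of highest score were used (5.80 points, -0.763 to 12.3) and when peaks off the arms were counted in the total (4.06 points, -0.370 to 9.02). Among peaks with a Mod(mdg4)2.2 midpoint within 1 kb, a choice made after the arms had been seen, the difference on 3L was 8.90 points (2.68 to 15.3, 65 of 271 Rump and 54 of 358 Shep peaks).

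On 2R the sign was the other way, with 18.8% of Rump peaks and 22.9% of Shep peaks (-4.18 points, -8.81 to 1.12). Its interval left out 0 with the top 50% of each list by score (-7.88 points) and with all sequences in the total (-6.60 points). The remaining differences were -1.44 points on 2L, -1.59 on 3R, -0.215 on 4 and 0.293 on X. Put as densities, Shep ran from 7.05 peaks per Mb on 4 and 9.67 on 2L to 15.7 on 2R, and Rump from 0.881 on 4 and 1.79 on 2L to 2.85 on 3L. There were 3.42 Shep peaks per Rump peak on 3L and 6 on 2R.

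**Figure D5:**
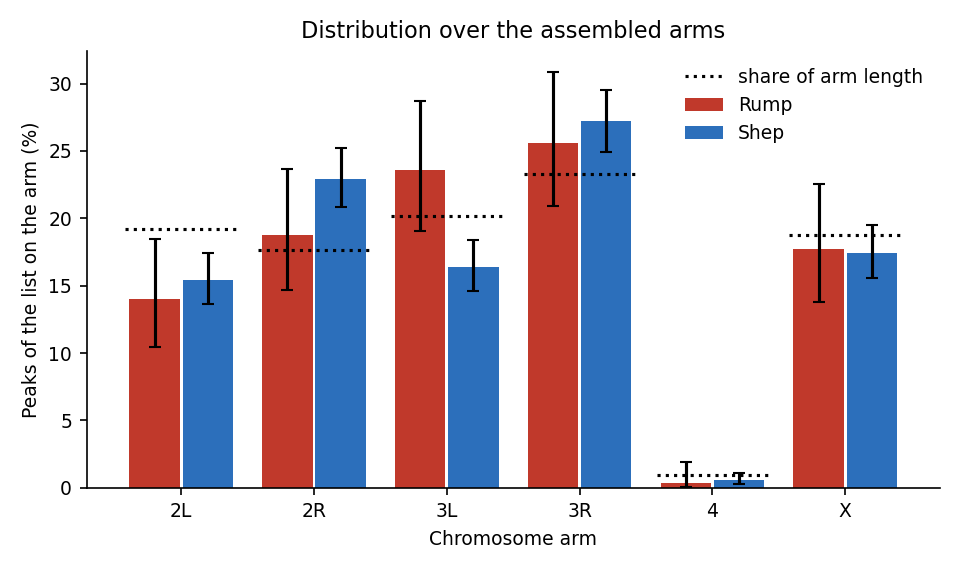
Share of each list's arm peaks (y axis, %) on each chromosome arm (x axis) for Rump (left bar) and Shep (right bar), with Wilson 95% intervals and dotted lines for the arm's share of the total length. Rump is above Shep on 3L, 23.5% against 16.4%, and below it on 2R, 18.8% against 22.9%.

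The Rump peaks close to Shep were also counted on each arm. A Shep midpoint lay within 10 kb of 13 of 69 Rump peaks on 3L (18.8%, 11.4 to 29.6), of 14 of 52 on X (26.9%, 16.8 to 40.3), of 21 of 55 on 2R (38.2%, 26.5 to 51.4), of 16 of 41 on 2L (39.0%, 25.7 to 54.3) and of 32 of 75 on 3R (42.7%, 32.1 to 53.9). Set against the arm length so close to Shep, 3L had the lowest ratio of these, 1.20, and 2L the highest, 2.50. These ratios rest on 13 and 16 Rump peaks and carry no interval here. The difference between arms was not tested. The single Rump peak on 4 lay 86212 bp from Shep. Of the 21 Rump peaks with another Rump peak within 10 kb, 9 were on 3L and 6 on 2L. These arms hold 69 and 41 of the 293 Rump peaks. The 21 peaks form only 9 pairs and 1 chain of 3, so they are not independent. Whether they are unevenly spread over the arms was not tested. A Shep neighbour within 10 kb was found for 35.6% of Shep peaks on 3L, 36.5% on 2L, 42.6% on X, 46.0% on 3R and 47.6% on 2R. Density by itself raises such shares, and it ran from 9.76 and 9.67 Shep peaks per Mb on 3L and 2L to 15.7 on 2R. No even-placement share is given for single arms, so the excess was not compared between arms.

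Along the large arms, cut into 5 stretches of equal length from the centromere side to the telomere side, the Rump shares varied more than the Shep shares. The shorter Rump list also varies more by counting alone. Rump had 23.6%, 14.7%, 22.3%, 16.4% and 22.9% of 292 peaks in these stretches, and Shep 19.5%, 20%, 20.3%, 19.6% and 20.6% of 1430. The difference in stretch 2, -5.27 points (-9.47 to -0.333), was the only one of the 5 whose interval leaves out 0, and 5 were compared. The centromere-side stretch held 4.12 points more of Rump (-0.870 to 9.68). Genes at these positions were not analysed here, because no annotation of dm3 was used.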

How the data were processed

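The peak lists were used as deposited by the authors. Build dm3, Bowtie 0.12.8, Picard 1.77, cutadapt 1.1, Trimmomatic 0.20 and bedtools 2.17.0 are named in the submitters' processing notes. The sources used here do not give the peak caller, its threshold, how libraries were joined or the read numbers. By the narrowPeak layout, the lists of Rump, Shep and Mod(mdg4)2.2 hold the authors' peak score and, as deposited, the −log10 of a q-value, from which q was computed. Start positions are counted from 1.

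Distances run between midpoints. Arm lengths are the highest peak end over the 5 lists, on 3L that of a Rump peak. Shares carry Wilson, differences Newcombe and medians exact binomial 95% intervals. Neighbours of the same list are mutual, so intervals of shares with such a neighbour or a shared window are too narrow. With 1 list per protein no test over samples was possible, and peaks are not replicates. Even placement was calculated from a Poisson model per arm. The scripts were tested on simulated data. The work was done in Python 3.11.15 with SciPy 1.17.1, pandas 2.3.3, NumPy 2.4.6 and matplotlib 3.10.9.

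Members, quantities, alternatives and the rule for named regions were chosen with earlier results of these data known. Named were the 3 windows richest in Rump, in Shep and in both, the longest chains, the 3 overlapping pairs and 3 peaks of each list of highest score, and the 3 Rump peaks farthest from Shep. Score quintiles, chromosome position and distance bins were added after seeing the data.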

Additional observations from a re-analysis of the deposited data

How the results depend on the processing

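Of 212 comparisons of 22 values with 16 alternative settings, 162 counted as unchanged. These stayed within the 95% interval of the reported value, and whether the interval of a difference holds 0 did not change. For the ratios of variance to mean, which have no such interval, the limit was 1.5 times the reported value either way. In these 162, whether the interval of a difference holds 0 did not change. No value changed sign against an interval that leaves out 0. The differences on 2L, 4 and X, whose intervals hold 0, changed sign under some settings. Most of those that moved were set by the number of peaks kept. Each large arm left out in turn, and distances between peak edges, moved no value past these limits.

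When Shep was limited to q of 0.05 or less, the median Shep spacing was 25010 bp, 32.1% had a Shep neighbour within 10 kb and 65.0% shared a window. Shep was then within 1, 10 and 100 kb of 6.48%, 24.9% and 77.8% of Rump peaks, at a median of 33275 bp. With q up to 0.01 these were 44875 bp, 17.7%, 51.2%, 4.10%, 17.7%, 64.8% and 53361 bp, the ratio of variance to mean was 1.18 for Shep, and the median from Shep to Rump was 130025 bp. With the 293 Shep peaks of highest score they were 121509 bp, 4.78%, 22.9%, 1.71%, 10.9%, 43.3% and 124213 bp, the ratio was 1.02, Rump was within 1 kb of 1.37% of Shep peaks, and the difference on 3L was 5.80 points, with an interval that holds 0.

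With the top 50% of each list by score, spacing was 250497 bp for Rump and 39318 bp for Shep. Then 22.8% of Shep peaks had a neighbour within 10 kb, and 14.4% of Rump and 54.7% of Shep peaks shared a window. Shep was within 1, 10 and 100 kb of 2.74%, 19.9% and 67.8% of Rump peaks (median 50272 bp), Rump within these distances of 0.556%, 4.87% and 23.6% of Shep peaks (median 301187 bp), and the difference on 2R was -7.88 points. With peaks within 1 kb merged, Shep spacing was 18125 bp, 35.5% had a neighbour within 10 kb and 74.4% shared a window.

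The share of peaks sharing a window was 17.1% for Rump and 60.4% for Shep in windows of 50 kb, 42.3% and 91.9% in windows of 200 kb, and 31.4% for Rump in windows shifted by 50 kb. With all sequences in the total, the differences were 4.06 points on 3L, with an interval that holds 0, and -6.60 on 2R. For peaks with Mod(mdg4)2.2 nearby, added after seeing the data, none of the 6 arm differences left its interval.

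No paired analysis was possible because each protein has 1 list that joins its libraries, and likewise no library was left out in turn. Read depth is unknown, and depth limits which weak peaks a list holds.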

Other observations

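Shep peaks that stand near another Shep peak also stood near Rump more often. A Rump midpoint lay within 10 kb of 12.9% of the 613 Shep peaks with a Shep neighbour within 10 kb, and of 7.15% of the 825 without one. A neighbouring pair can be near the same Rump peak, so these peaks are not independent. Scores differed little between these sets, with medians of 106 (103 to 109) and 110 (107 to 115). Rump peaks with and without a Rump neighbour had Shep within 10 kb in 38.1% of 21 and 32.4% of 272 cases.

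Shep peaks with no insulator protein within 1 kb were grouped as well. Of these 825 peaks, 31.3% (28.2 to 34.5) had another such peak within 10 kb, against 27.4% (24.0 to 31.1) among the 613 with one, which is 2.35 and 2.70 times even placement. The sets are split by position, so Shep peaks close to each other tend to fall in the same set. Even placement is therefore only a rough scale for either set.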
